A study of Mus musculus with 6 samples.

Results

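The acyl-CoA thioesterase family was followed in the small intestine of fetal mice shortly before birth (E18.5), in control tissue and in tissue where E-cadherin was conditionally knocked out (cKO). The members were taken as 10 named genes, Acot1, Acot2, Acot3, Acot4, Acot6, Acot7, Acot8, Acot9, Acot10 and Acot13, out of 19938 genes measured. Each had 1 probe set whose annotation lists that symbol alone, so the choice of the brightest probe set did not come into play. The family was proposed with results of the comparison of cKO with control already known. The members' differences are therefore given as a description, with no test of their own.

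There were 3 control samples, labelled wild type, and 3 samples labelled E-cadherin cKO, all total RNA of whole small intestine on Affymetrix Mouse Gene arrays. The Cre driver, the part of the gene removed and the strain are not given in the sources used. Nothing in the labels ties the samples to separate animals, so the errors given rest on the spread of 3 arrays a group, possibly a technical one. Values are the authors' deposited values, read as log2, and a difference of 1 on that scale is a factor of 2. Because bulk tissue was measured, fewer cells of a type and less RNA per cell cannot be told apart.

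Acyl-CoA thioesterases split an activated fatty acid, acyl-CoA, into a free fatty acid and coenzyme A, the reverse of what acyl-CoA synthetases do. They are found in peroxisomes, cytosol and mitochondria, where they set the balance between free and activated fatty acids and free up coenzyme A. Type I enzymes have an alpha/beta-hydrolase fold and their genes stand side by side on a mouse chromosome. Type II enzymes have the unrelated hotdog fold and lie scattered over the genome. Several type I genes are known targets of the fatty acid receptor PPAR alpha, and enterocytes meet a large load of fatty acids once suckling starts.

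The promoters of 4 of the type I genes that were lower in cKO tissue are shown because these genes lie next to each other and were lower together. They are RefSeq sequences of the build GRCm38.p6, 300 bases each, with 250 before and 50 from the annotated start on. Capitals mark the hexamer AGGTCA or its complement TGACCT, the core element of nuclear receptor sites such as those of PPAR alpha and HNF4A, and the CCAAT box or its complement ATTGG.
Acot2, chr12:83987611-83987910, + strand: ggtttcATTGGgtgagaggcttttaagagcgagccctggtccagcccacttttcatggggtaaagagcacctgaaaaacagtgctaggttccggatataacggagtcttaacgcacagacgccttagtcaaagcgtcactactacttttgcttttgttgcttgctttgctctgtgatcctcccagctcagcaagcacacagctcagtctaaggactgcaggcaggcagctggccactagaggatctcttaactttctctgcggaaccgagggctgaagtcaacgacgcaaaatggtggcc
Acot1, chr12:84009252-84009551, + strand: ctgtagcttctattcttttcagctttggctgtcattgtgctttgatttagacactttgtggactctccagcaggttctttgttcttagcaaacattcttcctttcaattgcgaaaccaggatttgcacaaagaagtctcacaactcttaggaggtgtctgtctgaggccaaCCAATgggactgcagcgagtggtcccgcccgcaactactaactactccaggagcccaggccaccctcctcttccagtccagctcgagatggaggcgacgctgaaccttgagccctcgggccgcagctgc
Acot4, chr12:84038129-84038428, + strand: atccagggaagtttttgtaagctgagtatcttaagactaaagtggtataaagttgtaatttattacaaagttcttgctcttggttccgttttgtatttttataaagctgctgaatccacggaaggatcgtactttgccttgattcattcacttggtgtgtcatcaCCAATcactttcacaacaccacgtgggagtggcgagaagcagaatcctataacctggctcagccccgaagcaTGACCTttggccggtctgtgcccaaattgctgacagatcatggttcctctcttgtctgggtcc
Acot3, chr12:84051894-84052193, + strand: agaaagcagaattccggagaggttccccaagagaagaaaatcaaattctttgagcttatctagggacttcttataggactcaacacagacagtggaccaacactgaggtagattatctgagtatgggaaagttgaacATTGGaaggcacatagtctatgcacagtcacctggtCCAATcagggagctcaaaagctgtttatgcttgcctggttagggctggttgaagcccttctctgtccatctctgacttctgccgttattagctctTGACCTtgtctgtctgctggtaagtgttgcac

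The hexamer AGGTCA, searched on both strands, stood in the Acot4 window 13 bases before the start and in the Acot3 window 18 bases after it. It is present in 16.3% of all 32851 promoter windows in the table. In Acot4 it is part of the longer AAAGGTCA, which overlaps it and is present in 1.51% of windows. The full direct repeat, a pair of AGGTCA hexamers 1 base apart, is found in 0.0396% of windows and was not in the window of any of the 8 members that the table holds. A CCAAT box stood 79, 85 and 77 bases before the start in Acot1, Acot4 and Acot3, and the Acot2 window held its complement 244 bases before the start. The Acot3 window also held the complement, 113 bases before the start. Of the 8 members 6 held a CCAAT box, against 37.4% of all windows. The Acot3 gene has a further annotated start, whose window overlaps the one shown. The table lists no window for Acot6 or Acot13. These matches describe letters only.

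Before the members are described, 3 features of the arrays need stating. Cdh1, the E-cadherin gene, measured 9.86, 9.82 and 10.15 on control arrays 1 to 3 and 9.70, 8.38 and 8.91 on cKO arrays 1 to 3. Its difference of -0.95 (SE 0.31) did not pass the threshold (limma adjusted p = 0.0884), and the library labelled cKO 1 lay close to the controls. In the 13 other settings tried the Cdh1 difference ran from -1.30 to -0.64. It passed in 4 of them, among them median centring and array weights. On cKO 2, dim genes lay lower than on the other arrays, with a median shift of -0.37 for 1233 receptor genes of smell and taste. The 95th percentile of those receptor genes, called background here, was 5.78 on cKO 2 and 6.08 to 6.36 elsewhere. On cKO 3, genes of pancreatic acinar cells were high, with Ctrb1, a chymotrypsinogen gene, at 12.39 against 5.62 to 7.03 on the other arrays. Their part in the results was not tested, and each member's range with any 1 array left out is given.

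Of the 10 members, 6 were lower in cKO (Acot1, Acot2, Acot3, Acot4, Acot6 and Acot13), 3 were higher (Acot7, Acot9 and Acot10), and Acot8 did not pass. Passing means an adjusted p under 0.05 in limma's test across all 19938 genes, with Benjamini-Hochberg adjustment. In that test 7.36% of all genes were lower and 6.81% higher, and nothing is read from that, since the members were chosen with the comparison known. The 6 lower members passed with any 1 array left out, whereas the count of higher members was 1 without control 2, 0 without control 3 and 1 without cKO 3. In all 10 members the groups did not overlap, and the same holds for 35.4% of all genes. The median difference over the 10 members was -1.10, against -0.09 over all genes tested. The plot of values by array shows each member with its background level.

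**Figure D1:**
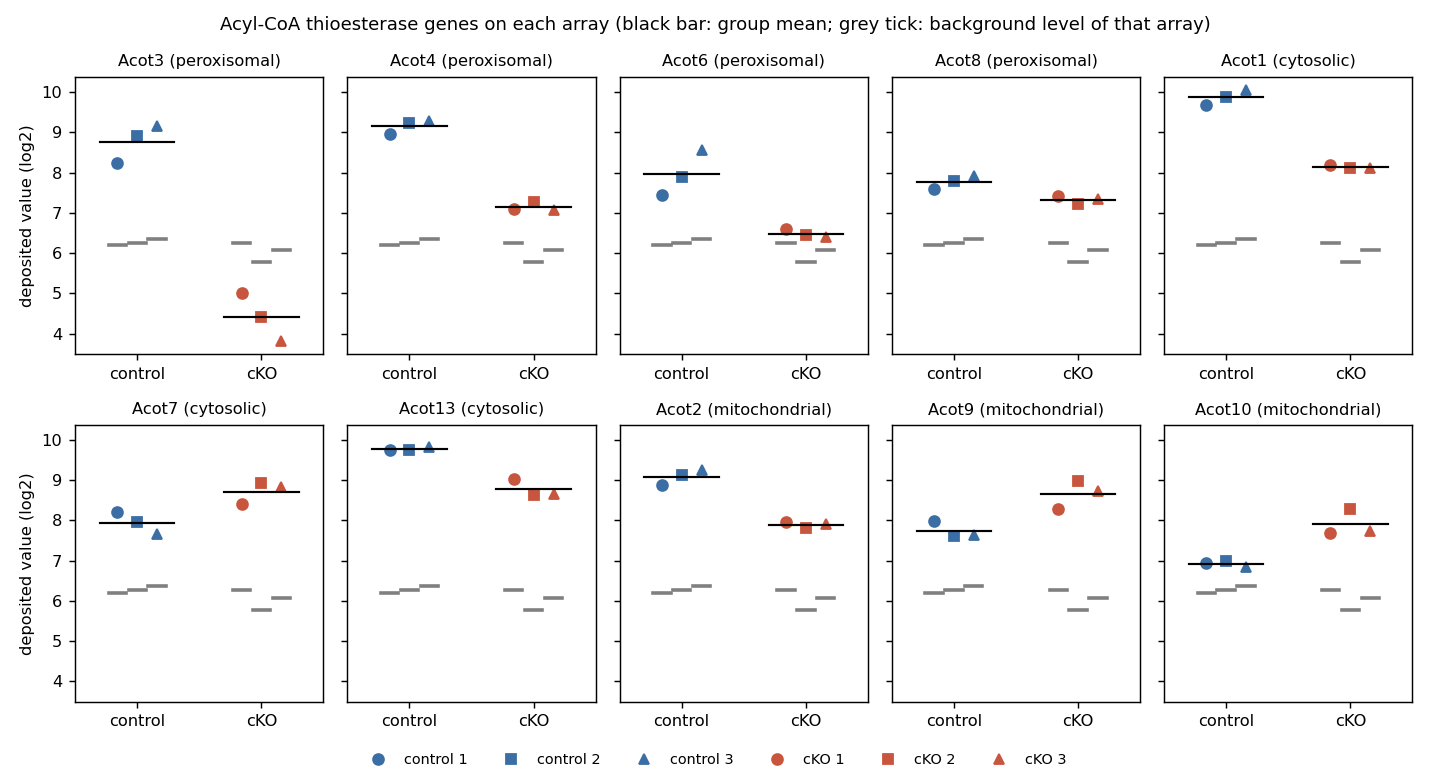
Deposited values (log2) of the 10 thioesterase genes, 1 panel a gene, with controls in blue and cKO in red; symbols tell the arrays of a group apart, black bars are group means and grey ticks the background level of each array. The 3 cKO values of Acot3 sit under the background ticks, Acot7, Acot9 and Acot10 are higher in cKO, and in no panel do the groups overlap.

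Among the peroxisomal members, Acot3 had the widest difference. This gene encodes a peroxisomal enzyme for long-chain acyl-CoA. For Acot3, control arrays 1 to 3 gave 8.24, 8.90 and 9.16, and cKO arrays 1 to 3 gave 5.01, 4.42 and 3.81. The groups were 3.23 apart at their nearest values, the widest gap in the family. The difference was -4.35 (SE 0.34), from 8.77 ± 0.47 to 4.41 ± 0.60 (SD, n = 3 each). All 3 cKO values of Acot3 lay under background, so the drop as measured is not exact. Measured down to background it was at least 6.61-fold, with each cKO array counted at the higher of its value and its background level. With any 1 array left out the difference ran from -4.65 to -4.05.

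Acot4 encodes a peroxisomal enzyme that acts on succinyl-CoA and other dicarboxylic acyl-CoAs. Control arrays 1 to 3 gave 8.96, 9.24 and 9.29, and cKO arrays 1 to 3 gave 7.10, 7.28 and 7.08. Both groups were tight and the values of the 3 cKO arrays stayed above background. The difference was -2.01 (SE 0.13), and the cKO level was 0.248 of the control level on the linear scale. It ran from -2.11 to -1.95 with any 1 array left out.

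Acot6 encodes a peroxisomal enzyme for methyl-branched acyl-CoAs. Controls 1, 2 and 3 read 7.45, 7.89 and 8.56, and cKO 1, 2 and 3 read 6.59, 6.46 and 6.41. Control 3 was high among the controls, whereas the cKO values lay together just above background. The difference in Acot6 was -1.48 (SE 0.26), with a range of -1.74 to -1.18 when 1 array was left out.

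Acot8 is the peroxisomal member of type II, with a broad range of substrates that includes bile acid intermediates. Control arrays 1 to 3 gave 7.59, 7.79 and 7.92, and cKO arrays 1 to 3 gave 7.41, 7.21 and 7.35. The groups were apart by only 0.18 at their nearest values. The difference of Acot8, -0.44 (SE 0.13, 95% interval -0.75 to -0.14), did not pass the threshold. It passed with quantile normalization, array weights, an intensity trend or without the dimmest 25% of genes, and ran from -0.53 to -0.37 over all settings, and over the arrays left out.

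In the cytosol, Acot1 and Acot13 were lower and Acot7 was higher. Acot1, the long-chain cytosolic enzyme of type I, read 9.67, 9.88 and 10.06 in controls 1, 2 and 3. In cKO 1, 2 and 3 it read 8.20, 8.12 and 8.11, a spread of 0.05 (SD) against 0.20 in controls. The difference in Acot1 was -1.73 (SE 0.13), a cKO level of 0.302 of control. It ran from -1.83 to -1.63 with any 1 array left out.

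Acot13, also known as Them2, is a small hotdog enzyme of the cytosol that also associates with mitochondria and binds the phosphatidylcholine transfer protein. Control arrays 1 to 3 gave 9.76, 9.74 and 9.83, and cKO arrays 1 to 3 gave 9.04, 8.62 and 8.65. The controls differed little and cKO 1 was the highest of the cKO arrays. The difference was -1.01 (SE 0.14), or -1.14 to -0.93 with any 1 array left out.

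Acot7 encodes a cytosolic enzyme with high activity on arachidonoyl-CoA that is abundant in neurons. Control arrays 1 to 3 gave 8.20, 7.96 and 7.66, and cKO arrays 1 to 3 gave 8.40, 8.92 and 8.83. The nearest values, control 1 and cKO 1, were 0.20 apart. The difference in Acot7 was 0.78 (SE 0.19), 1.71-fold as measured. It ran from 0.64 to 0.94 with any 1 array left out, and did not pass without control 2, control 3, cKO 2 or cKO 3. Beside it, none of the 4 measured marker genes of neurons and glia passed the threshold (limma; 2 at unadjusted p under 0.05). They went both ways, with differences of 0.48 for Elavl4, 0.31 for Tubb3, 0.08 for Sox10 and -0.37 for Ret. The summed level of those markers was 9.28 to 9.44 in controls and 9.30 to 9.54 in cKO (log2). The part of neurons in the Acot7 difference was not tested.

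The mitochondrial members went both ways. Acot2, the matrix enzyme for long-chain acyl-CoA and the closest relative of Acot1, read 8.88, 9.12 and 9.25 in controls 1, 2 and 3. In cKO 1, 2 and 3 it read 7.96, 7.82 and 7.90. No value came within 0.92 of the other group, and the difference in Acot2 was -1.19 (SE 0.13). With any 1 array left out it was -1.29 to -1.11.

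Acot9, a mitochondrial hotdog enzyme active on short-chain and long-chain acyl-CoA, read 7.98, 7.61 and 7.65 in controls 1, 2 and 3. It read 8.29, 8.97 and 8.74 in cKO 1, 2 and 3, with control 1 and cKO 1 only 0.31 apart. The difference in Acot9 was 0.92 (SE 0.20), 1.89-fold as measured. It did not pass without control 2, control 3 or cKO 3, and ran from 0.77 to 1.11 over the arrays left out.

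Acot10 is an intronless copy of Acot9 in the mouse. Control arrays 1 to 3 gave 6.95, 6.98 and 6.85, and cKO arrays 1 to 3 gave 7.69, 8.28 and 7.74. The controls lay close together and cKO 2 was the highest. The difference in Acot10 was 0.98 (SE 0.17), or 0.79 to 1.08 with any 1 array left out, and it did not pass without control 3. The probe sequences were not used here, so how far the probe sets of Acot9 and Acot10, or of the near-identical type I genes, read each other's transcripts was not tested. The values of such copies are uncertain to that extent.

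By compartment, the median difference was -1.75 over the 4 peroxisomal members (range -4.35 to -0.44), -1.01 over the 3 cytosolic members (-1.73 to 0.78) and 0.92 over the 3 mitochondrial members (-1.19 to 0.98). All 4 peroxisomal differences were negative, and 3 of them passed. The cytosolic and mitochondrial sets each held members that were lower and members that were higher. The mitochondrial median is that of Acot9, with its likely copy Acot10 on one side and Acot2 on the other. The cytosolic median is that of Acot13, which also associates with mitochondria. Counted there, Acot13 would lower the mitochondrial median, so the medians of these sets depend on its placing. By fold type the split was different. All 5 type I members were lower (median -1.73), whereas of the 5 type II members 1 was lower, 3 were higher and Acot8 did not pass (median 0.78). The type II median is the value of Acot7 and holds for the listed members only. The 14 other thioesterases described below (median -0.24) stand in neither set. Among them Acot5 is a type I gene too (-1.08) and did not pass, and the rest were not sorted by fold type. The plot of differences by compartment sets the members side by side. With so few genes a set, these medians describe the members and carry no test.

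**Figure D2:**
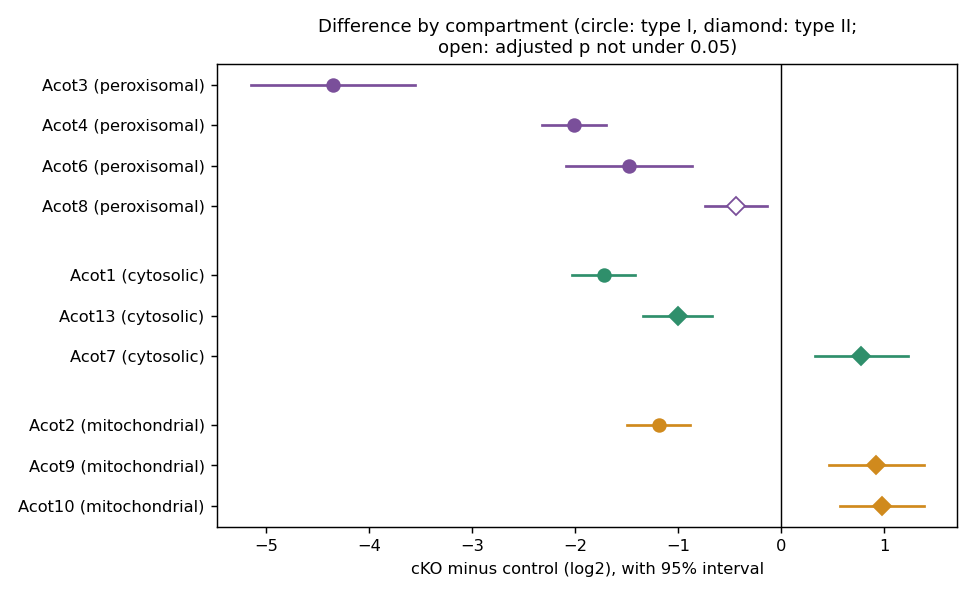
Difference between cKO and control (log2) for each member with its 95% interval from limma, grouped and coloured by compartment; circles are type I, diamonds type II, and the open symbol, Acot8, did not pass the threshold. The 5 circles lie at -1.19 or less in every compartment, and the 3 diamonds above 0 are Acot7, Acot9 and Acot10.

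The 5 type I members are neighbours on chromosome 12, in the order Acot2, Acot1, Acot4, Acot3, Acot5 and Acot6 by the RefSeq table of GRCm38.p6. Acot5, a further peroxisomal type I gene of that cluster and no member here, measured 5.62, 5.90 and 7.41 on control arrays 1 to 3 and 5.63, 5.13 and 4.93 on cKO arrays 1 to 3. Only control 3 was above background, the groups overlapped, and the difference of -1.08 (SE 0.45) did not pass (limma adjusted p = 0.163). Of the 3 annotated genes on each side of the cluster, 5 were measured. Heatr4 (-0.14, 95% interval -0.61 to 0.33) and Riox1 (0.06, -0.21 to 0.33) lie before Acot2, and neither passed. Past Acot6 lie Dnal1 (-0.29, -0.63 to 0.05), Pnma1 (-0.21, -0.54 to 0.12) and Mideas (0.04, -0.32 to 0.39), and none passed (limma, 0 of 5 genes, also 0 at unadjusted p under 0.05). Dnal1 lay at or under background on all 6 arrays, and Pnma1 on 5 of 6. Whether the members differ from their neighbours was not tested, since the members were chosen on this contrast.

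**Figure D3:**
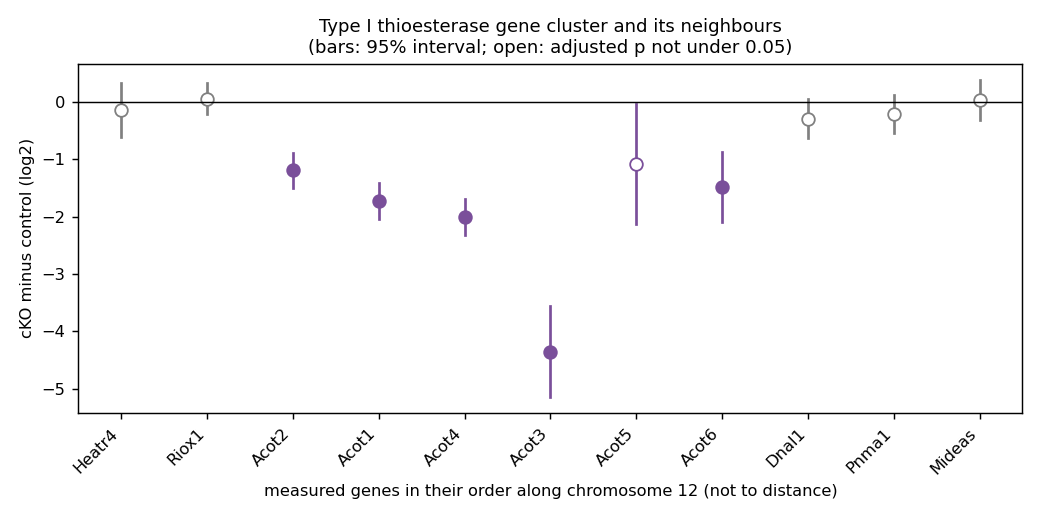
Difference between cKO and control (log2, bars are 95% intervals) for the measured genes of the chromosome 12 cluster and its neighbours, spaced by order and not by distance; purple marks thioesterase genes and open symbols did not pass the threshold. The thioesterase genes lie between -4.35 and -1.08, and the 5 neighbours between -0.29 and 0.06.

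The arrays of a group also differed among themselves. Whether the choice of members drew on that variation is not known. In 6 of the 10 members control 3 was the highest, control 2 the middle and control 1 the lowest value, an order found in 21.6% of all genes. These 6 were Acot1, Acot2, Acot3, Acot4, Acot6 and Acot8. The same order held in 9 of 10 enterocyte marker genes, among them Lct, the lactase gene, at 10.97, 11.45 and 12.07 in controls 1, 2 and 3. None of the 3 members that were higher in cKO had it. Among the cKO arrays, Acot7, Acot9 and Acot10 shared another order, with cKO 1 the lowest and cKO 2 the highest, seen in 13.5% of all genes. In 5 of the 6 lower members, all but Acot4, cKO 1 was the highest cKO array, so that in these 5 and in the 3 higher members cKO 1 lay nearest to the controls. Cdh1 had the reverse of the order of Acot7, Acot9 and Acot10, highest on cKO 1 and lowest on cKO 2. Its cKO 1 value, too, lay nearest to the controls. The orders counted are those that the members showed, so their shares over all genes are a scale and no test. Acot9 and Acot10 may read each other's transcripts and need not be separate instances. These orders rest on 3 arrays a group and are a description.

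Genes outside the family that deal with the same substrates were counted from lists drawn up by function, with earlier results of these data known. Over the 112 distinct genes measured, 40 fell and 3 rose (35.7% and 2.68%), beside 7.36% and 6.81% of all genes. Of 14 other thioesterases 0 were called by limma, with 5 at unadjusted p under 0.05 and 3 called lower with array weights. Their median difference was -0.24. Acot11, a fatty acyl-CoA thioesterase linked to brown fat, differed by 0.01 (SE 0.14, 95% interval -0.30 to 0.33), a value that turned in sign with the array left out. Acot12, a cytosolic acetyl-CoA thioesterase, measured 6.38, 7.31 and 8.74 on control arrays 1 to 3 and 6.59, 6.46 and 6.50 on cKO arrays 1 to 3. The controls of Acot12 spread so widely that they spanned the cKO values (difference -0.96, SE 0.52, limma adjusted p = 0.271). Lypla1, a lysophospholipase and protein depalmitoylase, came nearest to the threshold (-0.42, SE 0.12, limma adjusted p = 0.0544) and passed in 3 of the settings tried. The differences of Them4, Them5, Them6, Them7, Baat, Ppt1, Ppt2, Fasn, Olah and Lypla2 lay between -0.39 and 0.24.

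The acyl-CoA synthetases, which run the opposite reaction, were mixed. Of 21 measured genes 5 fell and 2 rose, with a median of -0.35. Acsl5, the main long-chain synthetase of enterocytes, measured 12.15, 12.30 and 12.38 on control arrays 1 to 3 and 11.40, 11.53 and 11.36 on cKO arrays 1 to 3. It fell by 0.85 (SE 0.12, limma adjusted p = 0.00434). Slc27a4, the fatty acid transport protein of the intestine with synthetase activity, fell by 1.14 (SE 0.19, limma adjusted p = 0.00851). Acsm2, a medium-chain synthetase, fell by 1.15 (SE 0.16, limma adjusted p = 0.00425), but its cKO values and 2 of 3 control values lay at background, where the fold is not exact. Acsl4, which prefers arachidonic acid, rose by 0.98 (SE 0.11, limma adjusted p = 0.00233), from 6.79, 6.81 and 6.63 in controls 1, 2 and 3 to 7.66, 7.80 and 7.70 in cKO 1, 2 and 3. The thioesterase Acot7, which prefers the same fatty acid, was also higher in cKO, by 0.78. The remaining calls, named after their values were seen, were Acsm3 (0.93, controls at background, at least 1.35-fold), Acss1 (-1.03) and Acsf3 (-0.49). The count of synthetases that fell was 3 without any 1 of the 3 controls, cKO 2 or cKO 3, and only 1 rose without cKO 3.

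Genes of fatty acid breakdown fell in both organelles that hold thioesterases. Of 20 measured genes of peroxisomal beta-oxidation 10 fell and 0 rose, with a median of -0.58. Pecr, a peroxisomal enoyl-CoA reductase, fell by 1.81 (SE 0.13), Hacl1, which splits branched acyl-CoA, by 1.57 (SE 0.14) and Crot, the peroxisomal carnitine acyltransferase, by 1.18 (SE 0.12). The isomerase gene Eci2 fell by 1.14 (SE 0.13), and limma's adjusted p was at most 0.00234 in these 4 genes. Of 17 measured genes of mitochondrial beta-oxidation 15 fell and 0 rose, with a median of -0.72. Among them Acaa2, the mitochondrial thiolase, fell by 1.60 (SE 0.17), Hadh by 1.38 (SE 0.15), Eci1 by 1.19 (SE 0.10) and the electron carrier gene Etfb by 0.83 (SE 0.11), with limma's adjusted p at most 0.00336. Acot9 and Acot10 were higher in tissue where 15 of 17 genes of the same organelle's beta-oxidation fell. All 17 differences in that list were negative, and without control 2 or cKO 3 the calls were 9 of 17. Of 13 genes of peroxisome assembly 4 fell, Pex7, Pex14, Pex16 and Pex2, by 0.98, 0.91, 0.96 and 0.54, and 0 rose (median -0.39), with 9 called lower under array weights. The call of Pex2 was lost without any 1 of control 1, control 2, control 3 or cKO 3.

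**Figure D4:**
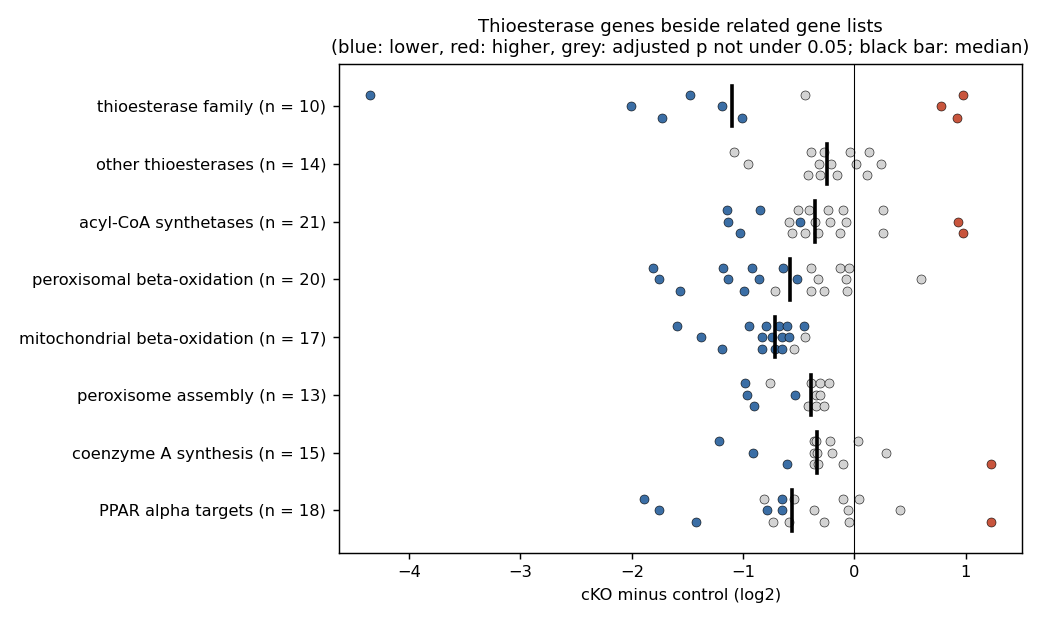
Difference between cKO and control (log2) for each gene of the thioesterase family and of the related lists, with lower genes in blue, higher genes in red, genes past no threshold in grey and the list's median as a black bar. The family has the lowest single value, Acot3 at -4.35, and a median of -1.10; all 17 genes of mitochondrial beta-oxidation lie under 0.

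Ppara encodes PPAR alpha, the receptor known to act on type I thioesterase genes. For Ppara, control arrays 1 to 3 gave 7.69, 7.62 and 7.91, and cKO arrays 1 to 3 gave 6.85, 6.31 and 6.78. It fell by 1.09 (SE 0.17, limma adjusted p = 0.00681). Pparg, the receptor best known from fat cells, rose by 0.95 (SE 0.14, limma adjusted p = 0.00529). Ppard and Rxra, a PPAR relative and the common partner, differed by -0.28 (SE 0.12) and -0.30 (SE 0.11) and did not pass (limma adjusted p = 0.177 and 0.109). Hnf4a, an enterocyte transcription factor, fell by 0.88 (SE 0.18, limma adjusted p = 0.0175), a call lost without cKO 3. Of 18 measured PPAR alpha targets outside the family 6 fell and 1 rose, with a median of -0.57. The 18 include Cyp4a10, Cyp4a14 and Cyp4a31, which lay at background on all 6 arrays, where a difference is not exact. The targets with the smallest p were Ehhadh, a bifunctional enzyme of peroxisomes (-1.76, SE 0.22), Creb3l3 (-1.42, SE 0.19), Fabp1 (-1.89, SE 0.26) and the lipid droplet gene Plin2 (-0.79, SE 0.12), with limma's adjusted p at most 0.00694. Fabp1 is also an enterocyte marker, and Ehhadh, Cpt1a, Acadm, Slc25a20, Slc27a2 and Vnn1 stand in another of the lists too. The target that rose was Vnn1, pantetheinase (1.23, SE 0.25, limma adjusted p = 0.0193), with controls at background, so that the rise was at least 1.70-fold. Its call was lost without control 2, control 3 or cKO 1. The PPAR alpha targets Pdk4 and Angptl4, chosen after their values were seen, differed by -0.37 (limma adjusted p = 0.175) and -0.06 (limma adjusted p = 0.809).

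Markers of whole cell types moved beside the members. Of 10 enterocyte markers 6 fell and 0 rose, with a median of -0.96. Their summed level (log2 of the sum of linear values) was 15.31 to 15.76 in controls and 14.56 to 14.64 in cKO. General epithelial markers were mixed, with 4 of 11 higher (Krt8, Krt18, Krt19 and Krt20) and 1 lower (Cdx2). The 4 that rose are all keratin genes, whereas 7 of the 11 differences were negative and the median was -0.10. Cdh1, the gene targeted in cKO, is among these 7 (-0.95). The summed level of the 11, which includes the keratins, was 14.34 to 14.56 in controls and 14.71 to 14.80 in cKO. Epcam, carried by all intestinal epithelium, differed by -0.10 (SE 0.11, limma adjusted p = 0.587). All 6 smooth muscle and all 6 fibroblast markers rose, with medians of 0.87 and 0.70, and 5 of 6 markers of macrophages and leukocytes rose (median 1.07). With any 1 array other than cKO 2 left out, 1 to 3 of the fibroblast markers passed. The summed level of smooth muscle markers was 13.72 to 13.99 in controls and 14.58 to 14.69 in cKO. That of fibroblast markers was 12.97 to 13.18 and 13.60 to 13.86, and that of macrophage and leukocyte markers 10.48 to 10.62 and 11.38 to 11.79. No listed marker read 0 on any array. Of the 4 measured hepatocyte markers, Alb, Apoh and Cyp2e1 lay at background on all 6 arrays. Ttr, the transthyretin gene, was well above it, at 9.74 to 11.28 in controls and 8.94 to 10.18 in cKO. Of the 5 fat cell markers, Adipoq, Ucp1 and Cidea lay at background on all 6 arrays, whereas Fabp4 (8.37 to 9.03) and Plin1 (5.86 to 6.86) did not on any. None of these 9 markers passed the threshold (limma, 0 of 9 genes, also 0 at unadjusted p under 0.05), while array weights called 2 hepatocyte markers and 1 fat cell marker lower. The part of these cell types in the thioesterase differences was not tested.

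Acot3 had the widest change in the family, and the genes whose values ran closest to it were named by the smallest root mean square distance. This was taken over the 6 arrays after each gene had been centred on its control mean. The closest were Fbp1, a gluconeogenic enzyme gene (0.479), Slc34a3, a phosphate transporter gene (0.705), Sdr16c5, a retinol dehydrogenase gene (0.712), Adh1, an alcohol dehydrogenase gene (0.739), and Mcoln3, a lysosomal channel gene (0.749). The distance is in log2 units. The cKO values of Fbp1 and Sdr16c5 lay at background on all 3 arrays, as those of Acot3 did, and those of Slc34a3 on 2 of 3. The distances are in part between values under background, which are not exact, so the order of these genes is not either.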

How the data were processed

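RNA of E18.5 small intestine was measured on 6 arrays, 3 a group. The authors analysed the arrays with dChip, per the series design text. Its version and settings were not given in the sources used. The deposited values, with 2 decimals and a top near 14, were taken to be log2, since the labels name no scale. They were used as deposited. Precision is limited by the number of arrays.

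Of 35512 probe sets, 21789 had 1 symbol in the platform annotation, 1621 several and 12102 none listed. For 21698, the symbol was brought up to date by gene identifier. The brightest probe set was kept for each of 19938 genes. All genes were fitted with limma 3.58.1 (R 4.3.3; lmFit, eBayes, two-sided, no covariate), adjusted by Benjamini-Hochberg at 0.05, and the script was tested on simulated data. Intervals are 95%. Background is the 95th percentile, on each array, of 1233 receptor genes of smell (olfactory, vomeronasal) and taste. Alternatives were quantile normalization, median centring, a filter on dim genes, the mean of a gene's probe sets, array weights, a trend, a replicate block and each array left out.

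Members, compartments and lists were chosen with earlier results of these data known. Compartments and roles are textbook knowledge. Genes were named by rule: all members and other thioesterases, the 4 genes with the smallest p of each other list, Cdh1, Ppara, Pparg, Ppard, Hnf4a, Rxra, 3 annotated genes on each side of the cluster and the 5 genes closest to Acot3. The labels name no build, so the only coordinates given are those of the RefSeq promoter windows (GRCm38.p6). Of 121 distinct related genes listed, 112 were measured.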

Additional observations from a re-analysis of the deposited data

How the results depend on the processing

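The count of thioesterase genes lower in cKO stayed at 6 with any 1 array left out and was 6 to 7 in the other settings, while the count of those higher was 0 to 3 with 1 array left out (0 without control 3, 1 without control 2 or cKO 3). With the replicate block 6 members were lower and 2 higher, and Acot7 did not pass (adjusted p = 0.0638). Whether replicate numbers pair the samples is not given in the labels. Deviations of same-numbered arrays correlated at -0.08, 0.13 and 0.14, and those of differently numbered arrays at -0.24 to 0.15. With 3 arrays a group these values do not decide it. Over all genes, 1467 lower and 1358 higher became 717 to 1438 and 509 to 1275 with 1 array left out, and 2913 and 2921 with array weights. Related genes higher in cKO were 3, and 5 with quantile normalization and 8 with array weights. Of 64 named genes, signs turned for Acot11 (-0.068 to 0.11), Them7 (-0.50 to 0.062, and 0.077 with array weights), Baat (-0.053 to 0.26), Lypla2 (-0.087 to 0.0033), Mideas (-0.085 to 0.14) and Heatr4 (-0.33 to 0.038) with 1 array left out, none of which passed. The causes were not tested.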

Other observations

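Coenzyme A, which thioesterases release, is made and carried by a further set of genes. Of 15 genes of coenzyme A synthesis and acyl-CoA binding 3 fell and 1 rose (5 and 2 with array weights), with a median of -0.34, against 7.36% of all genes lower and 6.81% higher. Pank3, a kinase of the first step of coenzyme A synthesis, measured 10.50, 10.73 and 10.89 on control arrays 1 to 3 and 9.73, 9.42 and 9.33 on cKO arrays 1 to 3. It fell by 1.21 (SE 0.16, limma adjusted p = 0.00352). Slc5a6, the transporter of the precursor pantothenate, fell by 0.91 (SE 0.14, limma adjusted p = 0.00563). Dbi, the acyl-CoA binding protein, fell by 0.60 (SE 0.14, limma adjusted p = 0.0313), a call lost without any 1 of the 3 controls, cKO 1 or cKO 2. The gene that rose was Vnn1, which breaks down pantetheine and is also among the PPAR alpha targets.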
